A study of Mus musculus with 15 samples.

Results

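The genes described here are 10 mouse genes of autophagy, chosen by name and taken from 20207 genes in each table. They are the cargo receptor genes Sqstm1 and Nbr1, the 5 ATG8 genes Map1lc3a, Map1lc3b, Gabarap, Gabarapl1 and Gabarapl2, and the regulators Ulk1, Wipi1 and Tfeb. The files list 9 of the 10 under these symbols and Tfeb under its older symbol Tcfeb. The rule that defines them uses names and no measured value, although results of these data were known when they were chosen.

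mRNA-seq was performed on NIH3T3, a fibroblast line from mouse embryos, with a stable DD-sfGFP transgene, the L106P destabilizing domain (DD) of FKBP fused to superfolder GFP. All 15 samples came from this population, which had been sorted for high GFP and was not a single clone, and all cells had grown with Shield-1 (S1), the ligand that keeps the DD folded. There were 5 control samples (cont) with S1 left in place and no stress, and 3, 3 and 4 samples collected 45, 135 and 405 min after withdrawal of S1, for which a purified FKBP(F36V) protein was added to take up the ligand, so the time samples also carry exposure to that protein. The labels do not say whether replicates were separate cultures, so p-values measure only the spread between these samples, which may be technical.

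Autophagy encloses cytoplasm in a double membrane, the autophagosome, which then fuses with the lysosome. The ULK kinase complex starts the process, a phosphatidylinositol 3-kinase marks the membrane, and WIPI proteins read that mark. Small ubiquitin-like proteins of the ATG8 family, which form an LC3 and a GABARAP branch, are then joined to membrane lipid, and receptors such as p62 (the product of Sqstm1) and NBR1 bind ubiquitylated cargo with one part and ATG8 with another. Fibroblasts use this route beside the proteasome to remove aggregated or ubiquitylated protein, and TFEB is a transcription factor of autophagy and lysosome genes.

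The windows before the starts of Sqstm1, Gabarapl1 and Ulk1 are shown because these genes had the largest differences from control among the members. Each is the 250 bases upstream of the gene start, 5′ to 3′ on the gene's strand, from RefSeq on build GRCm38.p6, and capitals mark a GC box, GGGCGG, on either strand (CCGCCC as read here). The intervals are chr11:50210821-50211070 (minus strand) for Sqstm1, chr6:129532942-129533191 (plus strand) for Gabarapl1 and chr5:110810082-110810331 (minus strand) for Ulk1.
Sqstm1: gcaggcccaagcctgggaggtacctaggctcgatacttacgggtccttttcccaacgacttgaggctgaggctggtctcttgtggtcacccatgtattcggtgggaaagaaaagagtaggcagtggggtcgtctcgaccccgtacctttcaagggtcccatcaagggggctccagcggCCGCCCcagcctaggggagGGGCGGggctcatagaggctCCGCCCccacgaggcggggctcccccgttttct
Gabarapl1: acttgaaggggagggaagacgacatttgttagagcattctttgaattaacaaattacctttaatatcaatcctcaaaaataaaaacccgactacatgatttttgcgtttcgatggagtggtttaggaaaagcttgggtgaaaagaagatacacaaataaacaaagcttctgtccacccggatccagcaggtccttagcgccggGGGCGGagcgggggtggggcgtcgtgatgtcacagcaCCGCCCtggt
Ulk1: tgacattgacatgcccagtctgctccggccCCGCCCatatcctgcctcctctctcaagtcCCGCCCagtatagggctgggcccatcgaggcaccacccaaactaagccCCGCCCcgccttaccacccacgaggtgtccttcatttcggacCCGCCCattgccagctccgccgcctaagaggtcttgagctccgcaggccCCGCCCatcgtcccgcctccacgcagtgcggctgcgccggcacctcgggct

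Such windows were given for 9 of the 10 members, 12 windows in all. The GC box was found 3 times in the Sqstm1 window, 2 times in the Gabarapl1 window and 5 times in the Ulk1 window. It was found most often, 8 times, in the Wipi1 window, a gene that did not rise, 2 times for Gabarapl2, 1 time for Map1lc3b, 0 times for Gabarap and in both Nbr1 windows, and 1 to 2 times in the 3 Tfeb windows. Of all windows, 32.7% of 32851 of the same length hold at least 1. That share takes no account of GC content, which was 63.2% in the Sqstm1 window, 46.8% for Gabarapl1 and 67.2% for both Ulk1 and Wipi1. The median over all windows was 52.4%. The E-box CACGTG, the core of the element that TFEB binds, was in none of the 12 windows and in 6.0% of all windows. The antioxidant response element TGACNNNGC, searched like the others on both strands, was also in none of the 12 and in 10.2% of all windows, so no match of these motifs overlapped a GC box. The absence covers these letters in these windows only.

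Library totals ran from 6652539 to 30258404 counts. The libraries also differed in how gene level fell with the GC content of a gene's exons. Per 10 percentage points of GC, log2 CPM (counts scaled to the library total) changed by -1.42 to -0.66 in 10 samples and by -0.36 to 0.06 in the other 5. The higher slopes were those of 1 of 5 control samples (replicate 2), 1 of 3 samples at 45 min (replicate 3), 0 of 3 at 135 min and 3 of 4 at 405 min (all but replicate 3). This split was read from the data and is no labelled batch, and since it goes unevenly with time, the main differences below are also given with the side of the split as a term in the model. In fits within 1 side, 1 arm of the comparison of 405 min with control is a single sample (405-min replicate 3 on the lower side, control replicate 2 on the higher). The spread there comes from the groups on that side with more than 1 sample, and the lone sample is assumed to vary as they do. All 8 fibroblast markers exceeded 10 CPM in every sample, while leukocyte markers summed to at most 8.1 CPM and epithelial, endothelial and neuronal markers to at most 3.3 CPM. In bulk RNA a change in level per cell and a change in the share of cells that express a gene cannot be told apart.

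In control cells the members covered a wide range of levels when compared per length, as the RPKM (reads per kilobase of gene, scaled to library size) that the authors deposited. The scaling of that column differed between samples: for Sqstm1 the RPKM was 0.14 times the CPM in control replicate 3 and 0.20 to 0.28 times in the others. It leaves the order of genes within a sample as it is, but the ranges over samples carry it. The medians over 5 samples were 36.2 RPKM for Map1lc3b (29.0 to 43.6), 30.8 for Gabarap (10.2 to 92.9) and 30.8 for Sqstm1 (13.3 to 98.4), and the ranges of these 3 overlapped. Next came Wipi1 at a median of 12.8 RPKM, Map1lc3a at 11.8 and Nbr1 at 9.81, again with overlapping ranges. Gabarapl2 had a median of 6.69 RPKM, Gabarapl1 5.56 and Ulk1 1.20. Tfeb stood lowest, from 0 to 0.62 RPKM, and its highest value lay above the lowest of Ulk1, 0.45.

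**Figure D1:**
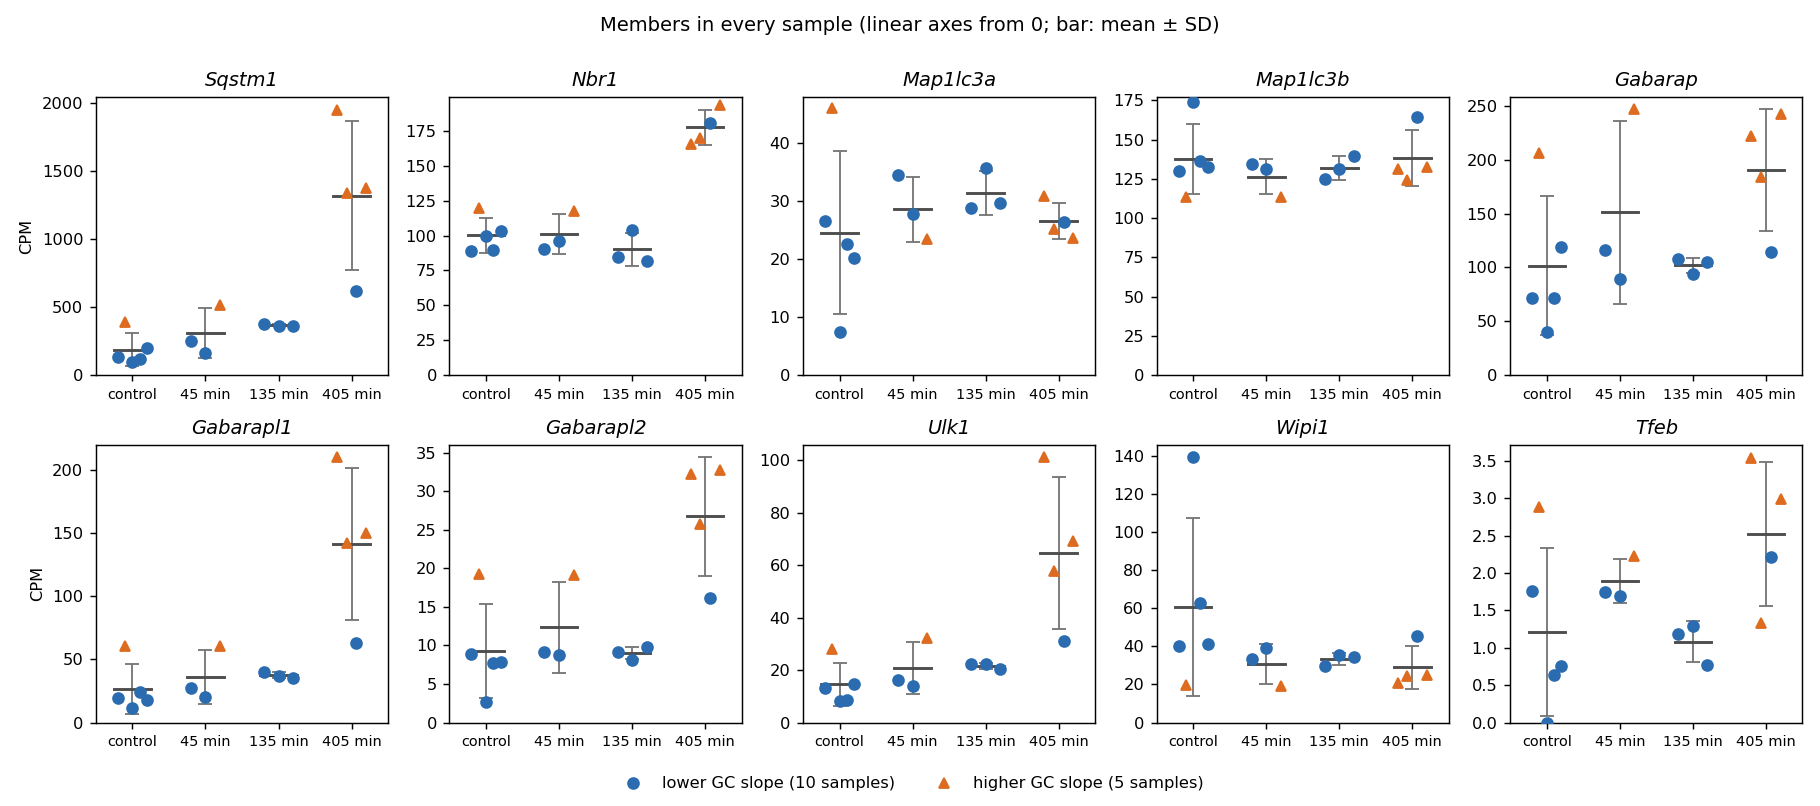
CPM of each member (y, linear from 0) in every sample by group (x); circles are the 10 samples of lower GC slope, triangles the 5 of higher slope, and the line and bar are the group mean and SD. The 4 samples at 405 min lie above every control sample for Sqstm1, Nbr1, Gabarapl1 and Ulk1, whereas Map1lc3a and Map1lc3b overlap at all times.

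At 405 min after S1 withdrawal, transcripts of both receptors, of Gabarapl1 and Gabarapl2 and of the kinase Ulk1 were higher than in control cells. Sqstm1 rose most, 6.7-fold, followed by Gabarapl1 (5.0-fold), Ulk1 (4.2-fold), Gabarapl2 (2.7-fold) and Nbr1 (1.6-fold). With the GC side in the model the same 5 genes passed, and the folds were 4.2 for Sqstm1, 3.1 for Gabarapl1, 2.7 for Ulk1, 1.9 for Gabarapl2 and 1.6 for Nbr1. The LC3 genes Map1lc3a and Map1lc3b did not pass the test at any time. Of the 9 members tested 5 were called higher and 0 lower by edgeR's quasi-likelihood test at an adjusted p (Benjamini-Hochberg) under 0.05, while 9.99% of the 10276 genes tested were called higher and 13.4% lower. With the GC side in the model these shares of all genes were 6.17% and 6.87%. The comparisons of 45, 135 and 405 min with control use the same control samples.

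Sqstm1 encodes p62, which carries ubiquitylated cargo to the autophagosome and also binds KEAP1, the inhibitor of the antioxidant factor NRF2. The gene lies at chr11:50013654-50024292 (mm9, minus strand). The control samples had 129.5, 388.8, 93.2, 115.9 and 201.8 CPM, the 45-min samples 250.7, 164.3 and 516.5 CPM, the 135-min samples 376.7, 360.6 and 364.5 CPM, and the 405-min samples 1952.4, 1337.2, 617.7 and 1378.7 CPM. All 4 samples at 405 min exceeded every other sample, and the lowest of them, replicate 3, was the only one there of lower GC slope. At 135 min every sample exceeded the 4 control samples of lower slope and fell below control replicate 2, the sample of higher slope. The log2 fold change against control was 0.69 ± 0.41 (SE) at 45 min (edgeR adjusted p = 0.698), 1.04 ± 0.41 at 135 min (edgeR adjusted p = 0.31) and 2.75 ± 0.40 at 405 min (edgeR adjusted p = 0.000467). Adding the GC side as a term gave 1.41 ± 0.19 at 135 min (edgeR adjusted p = 0.000255) and 2.08 ± 0.20 at 405 min (edgeR adjusted p = 7.65e-06). Within the side of lower slope, with 1 sample at 405 min against 4 controls, it was 2.10 ± 0.27. Within the other side, with 3 against 1, it was 1.99 ± 0.30.

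Nbr1 encodes a receptor of similar build to p62 that also binds ubiquitin and ATG8, and lies at chr11:101414172-101443259 (mm9, plus strand). Its counts were 89.1, 119.7, 99.4, 89.7 and 103.2 CPM in control, 90.3, 96.3 and 117.6 CPM at 45 min, 84.7, 103.9 and 82.1 CPM at 135 min, and 165.8, 170.2, 180.8 and 193.5 CPM at 405 min. The 405-min samples stood apart from all 11 others, which overlapped among themselves. The increase at 405 min was smaller than that of Sqstm1 and had a smaller error, a log2 fold change of 0.71 ± 0.12 (edgeR adjusted p = 0.00151). It was 0.67 ± 0.12 with the GC side as a term (edgeR adjusted p = 0.00177). Within the sides it was 0.82 ± 0.19 at lower slope and 0.55 ± 0.22 at higher slope, each with a lone sample in 1 arm, and was called in neither.

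The 3 ATG8 genes of the GABARAP branch all had a positive log2 difference from control at 405 min, and Gabarapl1 and Gabarapl2 passed. Whether the genes differ from each other was not tested. Gabarapl1, whose protein is also called GEC1, lies at chr6:129483210-129492349 (mm9, plus strand). It had 19.8, 60.9, 11.3, 23.8 and 17.6 CPM in control, 27.3, 20.5 and 60.8 CPM at 45 min, 40.4, 36.5 and 35.5 CPM at 135 min and 210.1, 142.0, 63.2 and 149.9 CPM at 405 min. The 405-min samples again lay above all others, although the lowest of them, replicate 3, exceeded the highest control sample, replicate 2, by only a small margin. At 135 min the 3 samples stood between control replicate 2 and the other controls, as for Sqstm1. The log2 fold change was 0.54 ± 0.44 at 135 min (edgeR adjusted p = 0.683) and 2.32 ± 0.42 at 405 min (edgeR adjusted p = 0.00225). The same model with the GC side gave 0.98 ± 0.19 at 135 min (edgeR adjusted p = 0.00525) and 1.62 ± 0.19 at 405 min (edgeR adjusted p = 4.69e-05). At 405 min it was 1.70 ± 0.29 within the side of lower slope and 1.45 ± 0.26 within the other, each with a lone sample in 1 arm.

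Gabarapl2, also known as GATE-16, lies at chr8:114464618-114476480 (mm9, plus strand). It had 8.9, 19.3, 2.7, 7.7 and 7.8 CPM in control, 9.2, 8.8 and 19.1 CPM at 45 min, 9.2, 8.1 and 9.8 CPM at 135 min and 32.2, 25.8, 16.2 and 32.7 CPM at 405 min. Here the 405-min sample of lower slope, at 16.2 CPM, lay below the control sample of higher slope, at 19.3 CPM, so the groups overlapped. The log2 fold change at 405 min was 1.43 ± 0.37 (edgeR adjusted p = 0.0166), and 0.91 ± 0.25 with the GC side as a term (edgeR adjusted p = 0.0233). It was 1.15 ± 0.45 within the side of lower slope and 0.64 ± 0.26 within the other, each with a lone sample in 1 arm, and was called in neither. In the model with group alone the call was lost without 405-min replicate 1 (1.34, edgeR adjusted p = 0.0547) or replicate 4 (1.34, edgeR adjusted p = 0.0557).

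Gabarap, the founding gene of the branch, lies at chr11:69804872-69808451 (mm9, plus strand). It had 71.9, 206.0, 40.1, 71.2 and 118.7 CPM in control and 222.7, 184.3, 114.3 and 243.1 CPM at 405 min, with 89.1 to 247.6 CPM at the times between. The samples of higher slope were the highest in each group that held one. The log2 difference from control at 405 min was 0.83 ± 0.36 (edgeR adjusted p = 0.0974), and 0.29 ± 0.21 with the GC side as a term (edgeR adjusted p = 0.406). Without control replicate 2 it was 1.20 ± 0.31 and passed (edgeR adjusted p = 0.00648).

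The LC3 genes encode the ATG8 proteins most used as autophagosome markers. Map1lc3b (chr8:124114368-124121947, mm9, plus strand) held 113.6 to 174.1 CPM in control, 113.5 to 134.6 CPM at 45 min, 124.8 to 139.6 CPM at 135 min and 124.4 to 164.3 CPM at 405 min. Map1lc3a (chr2:155102180-155103809, mm9, plus strand) held 7.4 to 46.0 CPM in control and 23.5 to 35.7 CPM over all samples after withdrawal. For both genes the control range enclosed nearly every later sample. The log2 difference at 405 min was -0.12 ± 0.17 for Map1lc3b (edgeR adjusted p = 0.589) and 0.03 ± 0.32 for Map1lc3a (edgeR adjusted p = 0.95). With the GC side in the model neither passed at any time. Within the sides the difference of Map1lc3a at 405 min was 0.36 ± 0.45 at lower slope and -0.80 ± 0.24 at higher slope. That of Map1lc3b was 0.09 ± 0.22 and 0.18 ± 0.21. Each of these fits had a lone sample in 1 arm, and whether the sides differ was not tested.

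**Figure D2:**
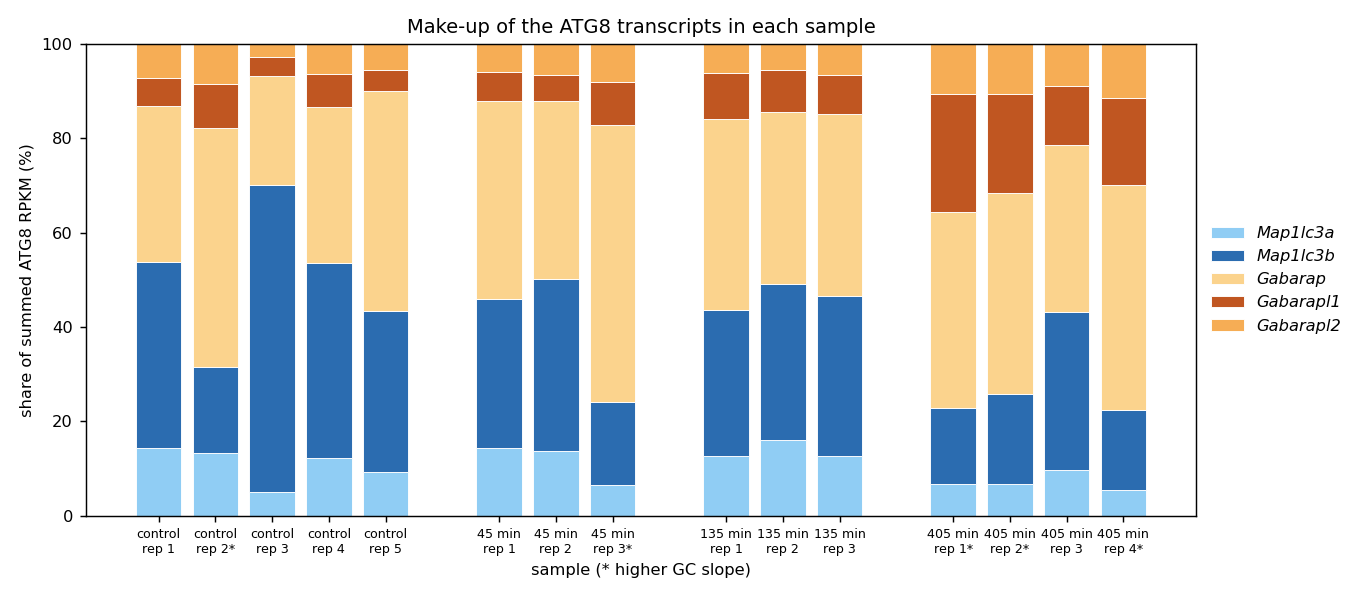
Share of each ATG8 gene (stacked, y, percent) in the summed RPKM of the 5 ATG8 genes for every sample (x); an asterisk marks samples of higher GC slope. The Gabarapl1 share is 12.4% to 24.9% in the samples at 405 min and 4.1% to 9.5% in control.

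Set against each other within a sample, which needs no scaling between samples, the ATG8 transcripts had the following make-up. Gabarapl1 made up 6.1% ± 2.2 (SD, n = 5) of the summed ATG8 RPKM in control, 6.9% ± 1.9 (n = 3) at 45 min, 9.0% ± 0.7 (n = 3) at 135 min and 19.2% ± 5.2 (n = 4) at 405 min. Its lowest share at 405 min, 12.4%, was above its highest in control, 9.5%. The Gabarapl2 share was 6.1% ± 2.2 in control and 10.4% ± 1.0 at 405 min, with ranges of 2.8% to 8.4% and 9.0% to 11.4% that did not meet. The Map1lc3b share was 39.7% ± 16.9 in control and 21.4% ± 8.2 at 405 min, and the ranges, 18.3% to 65.3% and 16.1% to 33.5%, overlapped. The summed share of the 3 GABARAP-branch genes was 49.5% ± 14.3 in control (29.8% to 68.6%) and 71.5% ± 9.8 at 405 min (56.9% to 77.6%), again overlapping. These shares are a description and were not tested. They also moved with the GC slope: control replicate 2 and the 45-min replicate 3 had the highest GABARAP-branch shares of their groups, 68.6% and 75.9%. Exonic GC content was 63.1% for Map1lc3a, 51.7% for Map1lc3b and 45.3% to 52.6% for the GABARAP branch, against a median of 49.6% over the tested genes, and its part in the shares was not tested.

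Ulk1 encodes the kinase that starts autophagosome formation and is held in check by mTORC1. It lies at chr5:111213508-111239100 (mm9, minus strand). It had 13.1, 28.1, 8.1, 8.6 and 14.8 CPM in control, 16.4, 13.9 and 32.1 CPM at 45 min, 22.3, 22.4 and 20.4 CPM at 135 min and 101.2, 57.7, 31.2 and 69.1 CPM at 405 min. The values at 405 min were above all control samples, and replicate 3, at 31.2 CPM, was below the 45-min sample of higher slope, at 32.1 CPM. The log2 fold change was 0.62 ± 0.37 at 135 min (edgeR adjusted p = 0.559) and 2.06 ± 0.35 at 405 min (edgeR adjusted p = 0.00159). The GC side as a further term gave 0.93 ± 0.20 at 135 min (edgeR adjusted p = 0.0112) and 1.45 ± 0.21 at 405 min (edgeR adjusted p = 0.000236). At 405 min it was 1.39 ± 0.30 within the side of lower slope and 1.42 ± 0.29 within the other, each with a lone sample in 1 arm.

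Wipi1 encodes a protein that binds the lipid mark on the forming membrane, and lies at chr11:109434835-109472703 (mm9, minus strand). Its group means were lower after withdrawal at every time. The control samples held 40.3, 19.5, 139.8, 63.0 and 41.3 CPM, the 45-min samples 33.6, 39.3 and 19.3 CPM, the 135-min samples 30.0, 35.7 and 34.4 CPM and the 405-min samples 20.7, 24.4, 45.6 and 24.97 CPM. The groups overlapped: control replicate 2 was as low as the lowest later samples, and control replicate 3, the library with the fewest counts, was far above all. The log2 difference was -1.10 ± 0.54 at 45 min (edgeR adjusted p = 0.698), -0.91 ± 0.53 at 135 min (edgeR adjusted p = 0.533) and -1.24 ± 0.49 at 405 min (edgeR adjusted p = 0.0753). Fitted with the GC side, it was -0.83 ± 0.38 at 45 min (edgeR adjusted p = 0.488) and -1.03 ± 0.37 at 135 min (edgeR adjusted p = 0.0923). At 405 min it was -0.39 ± 0.40 with the GC side as a term (edgeR adjusted p = 0.574) and 0.02 when control replicate 3 was left out of that model as well.

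Tfeb (chr17:47873986-47929364, mm9, plus strand) was scarcely detected. It had 25, 54, 0, 10 and 14 counts in control, 53, 16 and 35 at 45 min, 20, 26 and 22 at 135 min and 48, 27, 23 and 50 at 405 min, which is at most 3.5 CPM. The 0 in control replicate 3 allows up to 3 counts there, and because of it the gene was not among those tested. Without the filter on low counts the log2 difference at 405 min was 0.93 ± 0.64 (edgeR adjusted p = 0.375), and with the GC side as a term and control replicate 3 left out it was 0.43 (edgeR adjusted p = 0.556). No difference in Tfeb was called in these fits, which does not show that its level was unchanged.

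**Figure D3:**
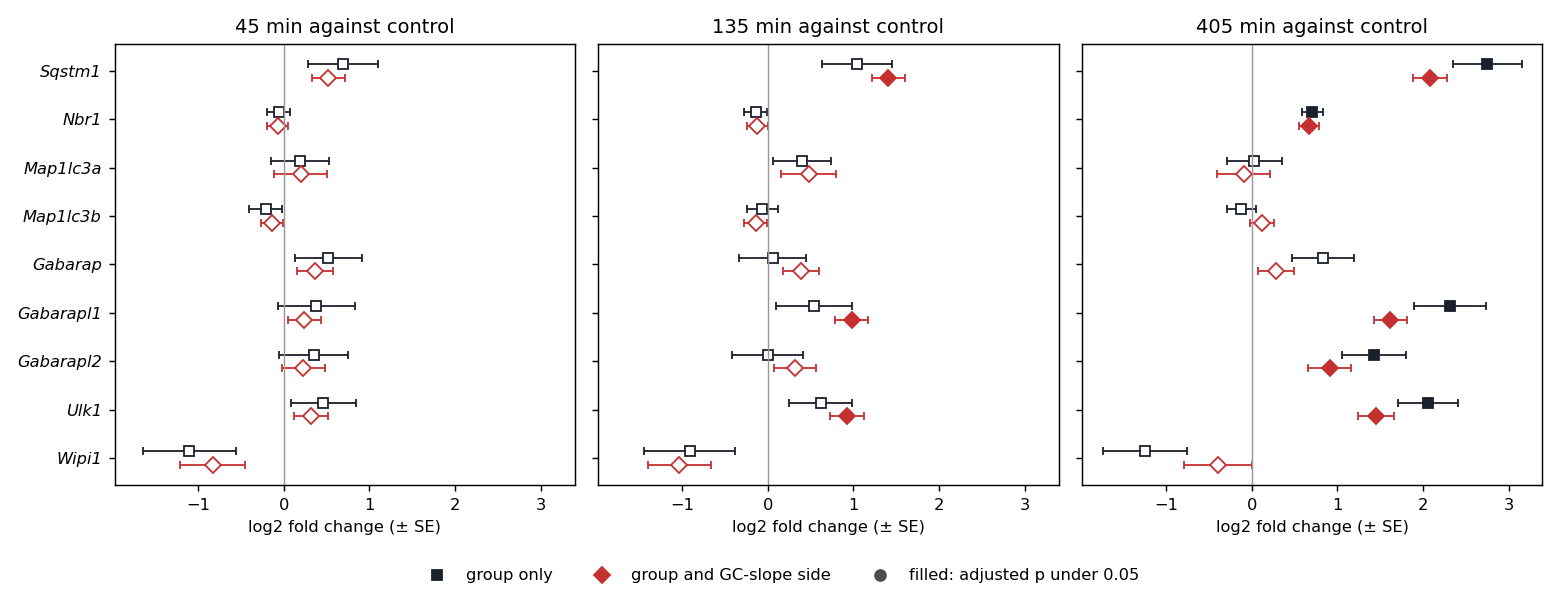
Log2 fold change against control (x) with its SE (bars) for the 9 tested members (y) at 45, 135 and 405 min; squares are the model with group only, diamonds the model with the GC-slope side added, and filled symbols have an edgeR adjusted p under 0.05. Sqstm1, Gabarapl1 and Ulk1 are filled at 135 min only with the side in the model, and 5 members are filled in both models at 405 min.

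At 135 min no member passed in the model with group alone, where 0.564% of tested genes were called higher and 0.895% lower, and 1226 genes had an unadjusted p under 0.05. With the GC side as a term 3 members, Sqstm1, Gabarapl1 and Ulk1, were called higher, against 3.06% of tested genes higher and 4.88% lower. Among the samples of lower slope alone, which include all 135-min samples and 4 controls, the same 3 were higher. Their log2 differences were 1.44 ± 0.21, 1.03 ± 0.22 and 0.94 ± 0.22, with edgeR adjusted p = 0.00437, 0.0253 and 0.0377. In that fit 2.08% of tested genes were called higher and 3.48% lower. Nbr1 and Gabarapl2, which were higher at 405 min, had log2 differences of -0.14 and 0 at 135 min in the model with group alone. With the GC side as a term they were -0.12 ± 0.12 and 0.32 ± 0.25 (edgeR adjusted p = 0.54 and 0.422). Without control replicate 2, Sqstm1 passed at 135 min in the model with group alone (log2 1.43 ± 0.35, edgeR adjusted p = 0.0411). At 45 min no member passed, and no gene of the 10276 did, so the background share was 0%; 365 genes had an unadjusted p under 0.05, and DESeq2 called 2 genes higher and 4 lower, with 0 members among them. The model with the GC side also called 0 members at 45 min, against 0.0292% of tested genes higher and 0.00973% lower. The lowest unadjusted edgeR p among the members at 45 min was 0.0584 in the model with group alone, for Wipi1, and 0.0136 in the model with the GC side, for Sqstm1 (log2 0.52 ± 0.19, edgeR adjusted p = 0.488).

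Between 135 and 405 min, Nbr1 and Sqstm1 were called higher at 405 min, where 2.24% of tested genes were higher and 2.82% lower. Control samples are in neither arm here, but they share in the gene filter and the estimate of the spread. The log2 difference was 0.85 ± 0.14 for Nbr1 (edgeR adjusted p = 0.00632) and 1.71 ± 0.46 for Sqstm1 (edgeR adjusted p = 0.0466). Gabarapl1, Ulk1 and Gabarapl2 differed by log2 1.78 ± 0.49, 1.44 ± 0.41 and 1.43 ± 0.44 with edgeR adjusted p = 0.0515, 0.0555 and 0.0705. The 135-min samples all had lower slopes and 3 of the 4 at 405 min higher ones. The model with the side as a term called 1 member, against 1.66% of tested genes higher and 2.01% lower: Nbr1 differed by 0.79 ± 0.15 (edgeR adjusted p = 0.00858), and Sqstm1 differed by 0.66 ± 0.23 (edgeR adjusted p = 0.139).

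The wider pathway was read from a list of 65 other autophagy genes, of which 63 were found in the tables and 56 tested. At 405 min 12 were called higher and 6 lower, against the 9.99% and 13.4% of all tested genes given above, and the median log2 difference was 0.35 for the list and 0 for all tested genes. Once the GC side was a term, 8 were higher and 3 lower, with a median of 0.16. In the model with group alone 0 passed at 135 min, and 0 at 45 min. The GC side in the model gave 1 higher and 6 lower at 135 min, against 3.06% and 4.88% of all tested genes. They were Atg2b at log2 0.36, and Vmp1 at -1.26, Atg16l2 at -0.99, Mitf at -0.86, Flcn at -0.74, Fundc1 at -0.73 and Nrbf2 at -0.51.

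**Figure D4:**
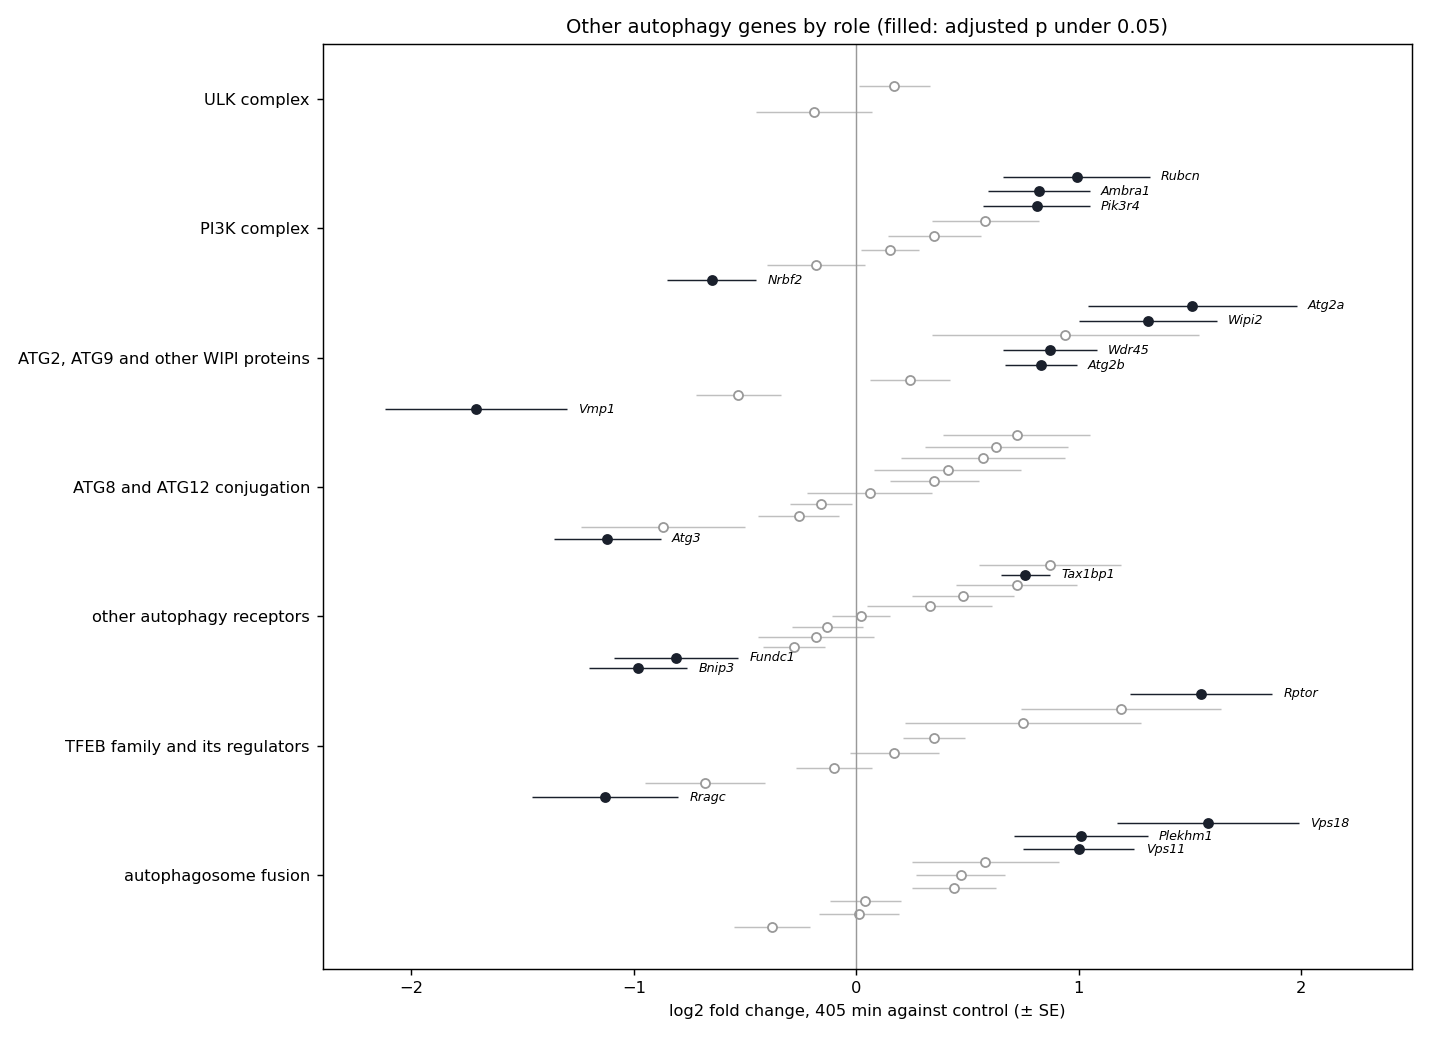
Log2 fold change at 405 min against control (x, with SE) of the 56 tested genes of the autophagy list, grouped by role (y); filled, named points have an edgeR adjusted p under 0.05. The named genes are 12 to the right of 0 and 6 to the left.

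Among the lipid transfer and WIPI proteins 4 of 8 tested genes rose and 1 fell. Over all tested genes 9.99% were called higher and 13.4% lower. Atg2a, which encodes a lipid transfer protein of the growing membrane, rose by log2 1.51 ± 0.47 (edgeR adjusted p = 0.0325). Wipi2 rose by 1.31 ± 0.31 (edgeR adjusted p = 0.0114) and Wdr45, another WIPI-family gene, by 0.87 ± 0.21 (edgeR adjusted p = 0.0109). Their relative Wipi1, as given above, did not rise. Vmp1, which encodes an ER membrane protein needed early in autophagosome formation and is listed as Tmem49, fell by 1.71 ± 0.41 on the log2 scale (edgeR adjusted p = 0.0109). Vmp1 overlaps the primary transcript of miR-21 on the same strand, and reads of both cannot be told apart in these counts. All 4 passed with the GC side as a term as well, at log2 0.76, 0.85, 0.75 and -0.95.

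At 405 min 9.99% of all tested genes were called higher and 13.4% lower, the shares to set beside the counts of this paragraph. Of the genes that attach ATG8 to lipid 0 of 10 rose and 1 fell, counts close to these shares. The 1 was Atg3, which encodes the conjugating enzyme, down by 1.12 ± 0.24 on the log2 scale (edgeR adjusted p = 0.00567). Its value with the GC side was -0.84 ± 0.22 (edgeR adjusted p = 0.0198). In the ULK complex the tested genes Ulk2 and Rb1cc1 differed by log2 -0.19 ± 0.26 and 0.17 ± 0.16, with edgeR adjusted p = 0.589 and 0.44, and by -0.17 and 0.34 with the GC side (edgeR adjusted p = 0.73 and 0.156). In the phosphatidylinositol 3-kinase complexes 3 of 8 rose, Rubcn (listed as 1700021K19Rik, log2 0.99 ± 0.33), Ambra1 (0.82 ± 0.23) and Pik3r4 (0.81 ± 0.24), and Nrbf2 fell by 0.65 ± 0.20. None of these 4 passed with the GC side as a term, where their edgeR adjusted p ran from 0.0711 to 0.153. That loss depended on control replicate 3. With the side as a term and that sample left out, 4 of 8 genes of these complexes were higher and 0 lower. In that fit 20.8% of all tested genes were called.

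Among the other receptors 1 of 11 rose and 2 fell, shares close to the 9.99% and 13.4% of all tested genes. Tax1bp1, a receptor for ubiquitylated cargo as p62 and NBR1 are, held 166.9 to 193.6 CPM in control and 327.6 to 346.3 CPM at 405 min. It rose by log2 0.76 ± 0.11 (edgeR adjusted p = 0.000493), and by 0.74 ± 0.11 with the GC side as a term (edgeR adjusted p = 0.000471). The mitochondrial receptor genes Bnip3 and Fundc1 fell by 0.98 ± 0.22 and 0.81 ± 0.28 on the log2 scale (edgeR adjusted p = 0.00811 and 0.0468). Fitted with the GC side, Bnip3 stood at -0.73 (edgeR adjusted p = 0.0331) and Fundc1 at -0.39 (edgeR adjusted p = 0.276). Optn, a further ubiquitin-binding receptor gene, differed by log2 0.33 ± 0.28 (edgeR adjusted p = 0.374), and by 0.54 with the GC side (edgeR adjusted p = 0.214).

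Of the TFEB relatives and the genes that control them 1 of 8 tested rose, Rptor (log2 1.55 ± 0.32, edgeR adjusted p = 0.00462), which encodes the raptor subunit of mTORC1. Rragc, which encodes a Rag GTPase that recruits mTORC1 to the lysosome, fell by 1.13 ± 0.33 on the log2 scale (edgeR adjusted p = 0.0254). These counts, 1 of 8 each way, were close to the 9.99% and 13.4% of all tested genes called higher and lower. They leave out Tfe3 (listed as Tcfe3) and Rragd, which were not tested because a control sample held 0 CPM. Tfe3 averaged 19.51 CPM in control (0 to 54.62) and 60.88 CPM at 405 min (24.25 to 88.62), and these ranges overlapped. Rragd averaged 2.14 and 1.49 CPM. With the GC side and without control replicate 3, 2 of 10 genes of this role were higher and 1 lower. In that fit 20.8% of all tested genes were called. Fitted with the GC side, Rptor was at 0.97 ± 0.14 (edgeR adjusted p = 0.000297) and Rragc at -0.51 ± 0.21 (edgeR adjusted p = 0.126). Among the fusion genes 3 of 9 rose, namely Vps18 (1.58 ± 0.41) and Vps11 (1.0 ± 0.25), of the tethering complexes at the lysosome, and Plekhm1 (1.01 ± 0.30), an adaptor that binds ATG8. Vps18 was at 0.90 and Vps11 at 0.79 in the model with the GC side (edgeR adjusted p = 0.0277 and 0.0306). Plekhm1 did not pass with the GC side as a term (0.60, edgeR adjusted p = 0.0939). The count over the list was 33 without control replicate 2, the control sample of higher slope, where 48.4% of all tested genes were called in place of 23.4%, and 9 without 405-min replicate 1, where 9.42% were called.

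Pearson's r was taken over the 15 samples on log2 CPM, here scaled with the TMM factors and a prior count of 2. The 3 members of lowest adjusted p at 405 min were set against 8020 genes with a mean of at least 10 CPM by total count. Named for each member are the genes whose levels went most closely with it. For Sqstm1 they were Ubfd1, Ubqln1, Srxn1, Supt6h and St13, all at r = 0.98. For Ulk1 they were Samd4b, Ubfd1, Slc48a1 and Hgs at r = 0.98 and Supt6h at 0.97. For Nbr1 they were Gigyf2 and D6Wsu116e at r = 0.92 and Atp6v1a, Gpatch1 and Chd6 at 0.91. Over the 10 samples of lower slope r ranged from 0.94 to 0.98 for the Sqstm1 set, from 0.90 to 0.95 for the Ulk1 set and from 0.81 to 0.90 for the Nbr1 set. Sqstm1 and Ulk1 themselves had r = 0.99 over 15 samples and 0.97 over the 10. These values describe the samples, which share library, depth and GC slope between the genes compared.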

How the data were processed

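Expected counts (estimated counts that need not be whole) and RPKM were deposited by the authors, who aligned the reads to mm9 and quantified RefSeq genes on DNAnexus; the aligner and versions were not given in the sources used here. Between 8.7% and 15.6% of genes held a fractional count. The score and the ratio columns (Z score, and RPKM over its root mean square) that the authors deposited were not used. Per the labels all libraries were made with 1 kit; the study's methods name a further preparation, which samples it covered is not given in the sources used here, and its relation to the GC slope was not tested. How reads that match several gene copies were counted was not given in the sources used here.

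Expected counts were rounded and analysed with edgeR 4.0.16 in R 4.3.3. The filter asked for 1 or more counts in each of the samples and left 10276 genes; TMM factors were computed and 1 quasi-likelihood model with a group term fitted to all 15 samples. P-values were adjusted by the Benjamini-Hochberg method over all tested genes (threshold 0.05), and the SE is the log2 fold change over the root of its F statistic. CPM printed per sample divides by the total count. The GC side came from the widest gap in the slope of log2 CPM on exonic GC (mm9 genome, GENCODE vM1; 95.0% of tested genes). No pair of replicates agreed within sampling noise (chi-square per degree of freedom 12.0 to 274.4 over 22 pairs). The test was also run on simulated counts that held no GC-slope difference between samples, so that run does not bear on the split.

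The 10 members and the gene lists were chosen with earlier results of these data known. Named were all members and the 5 genes most like each of 3 members. In each role of the autophagy list at most 4 genes were named, those with the largest difference among those called at 405 min. Every gene called at 135 min was named as well. Ulk2, Rb1cc1, Optn, Tfe3, Rragd and the genes called at 135 min with the GC side alone were added after their values were seen. The GC box was added after the promoter windows were seen. Alternatives were other normalization, filters and tool (DESeq2 1.42.0), other sample sets, the GC side and a replicate block.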

Additional observations from a re-analysis of the deposited data

Results flagged for a closer look

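In a test of the highest and lowest sample of a group for its gap to the next, over 20 groups of member values, of which chance flags about 1 in 20, 2 samples stood out. Gabarapl1 in control replicate 2 had 60.92 CPM, with a gap of 0.747 of the group's range against a critical value of 0.71; this is the control sample of higher GC slope. Wipi1 in the 405-min replicate 3 had 45.59 CPM, with a gap of 0.829 of the range at the critical value of 0.829; this is the 405-min sample of lower GC slope. The part of the GC slope in either value was not tested.

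When 405 min was set against 135 min, 2 members passed the threshold. Nbr1 differed by log2 0.85 (edgeR adjusted p = 0.00632) and Sqstm1 by log2 1.71 (edgeR adjusted p = 0.0466). For both, all 4 samples at 405 min lay above all 3 at 135 min. The same held for Gabarapl1, Ulk1 and Gabarapl2. They differed by log2 1.78, 1.44 and 1.43 with edgeR adjusted p = 0.0515, 0.0555 and 0.0705. For Sqstm1 the difference was 0.66 with the GC side as a term (edgeR adjusted p = 0.139).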

How the results depend on the processing

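At 405 min against control, 5 members were called, against 23.4% of all tested genes. Leaving out 1 sample at a time gave 4 to 7 members, where 9.33% to 48.4% of all genes were called. The fits within 1 side, with a lone sample in 1 arm, are counted among the 26 alternatives below. Sqstm1, Gabarapl1 and Ulk1 passed in all 26 alternatives, Nbr1 in 24 and Gabarapl2 in 20. Nbr1 lost its call only in the fits within 1 side, on either side. Gabarapl2 lost its call in these fits as well, and without 405-min replicate 1 or 4. It was also lost with only the groups compared (edgeR adjusted p = 0.0558) and under the replicate block (0.08). Wipi1 was called lower in 4 of 26: without control replicate 2 (-1.48), without 405-min replicate 3 (-1.57), without control replicates 2 and 3 (-0.88) and by DESeq2 (-1.28). At 135 min the 0 members called became 3 with the GC side as a term. The share of all genes called was then 7.93% in place of 1.46%. The count was also 3 in samples of lower slope (5.57% of all genes). With the side as a term and without control replicate 3 it was 3 again (10.4%). With 1 sample left out it was 0 to 1 (1 without control replicate 2), against 0.418% to 2.89% of all genes. At 45 min 0 members were called in every alternative run. Between 135 and 405 min the count of 2 became 1 with no filter, 1 with edgeR's own filter and 6 with only these groups. It became 0 under the replicate block, 1 with the GC side and 5 without control replicates 2 and 3. With the side and without control replicate 3 it was 4, and by DESeq2 it was 5. Under RLE normalization Gabarapl1 passed as well (edgeR adjusted p = 0.0497). With 1 sample left out the count ran from 0 (without 135-min replicate 1 or 3) to 5. This comparison therefore rests on the choice of samples and model. With 1 sample left out, 5 came without control replicate 2 or 3 or 405-min replicate 3. The share of all genes called moved too, from 5.06% to 26.3% with only these groups and 0.146% under the replicate block. It was 24.8% without control replicates 2 and 3 and 15.2% by DESeq2.

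Of the other autophagy genes, 18 were called at 405 min. The count was 7 with only the groups compared and 8 under the replicate block. It was 11 with the GC side and 33 without control replicates 2 and 3. With 1 sample left out it was 9 to 33, against 9.33% to 48.4% of all genes. The share of all genes went from 23.4% to 7.86%, 7.79%, 13% and 44.4% in the order of the settings above. These counts therefore moved together with those over all genes. With the side and without control replicate 3, 62 of the list genes were tested at 405 min. Of them 16 were higher and 4 lower, where 20.8% of all genes were called. At 135 min their 0 became 7 with the GC side (1 higher, 6 lower), 2 in samples of lower slope, 7 with the side and without control replicate 3, 2 by DESeq2, and 0 to 2 with 1 sample left out. No call was reversed. The cause of these shifts was not tested, beyond the fewer samples that the within-side fits hold. Whether replicate numbers pair samples could not be settled. Deviations from group means of the same number correlated at a mean r of -0.108 over 19 pairs (-0.692 to 0.43). For 64 pairs of different numbers the mean was 0.028 (-0.821 to 0.743). The GC-slope split, which falls on unlike replicate numbers between groups, enters these deviations and could hide a pairing. Within the side of higher slope there is no 135-min sample, so no value at that time. The settings without control replicates 2 and 3, and with the side but without control replicate 3, were chosen after seeing the data. Depth limits Tfeb, at 0 to 54 counts.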
